A study of Mus musculus with 7 samples.

Results

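The BCL2 family holds the proteins that decide whether a cell keeps the outer membrane of its mitochondria intact. Follicular dendritic cells (FDCs), the antigen-holding stroma of B-cell follicles, were profiled, and 10 genes of the family were taken from the table by their symbols: the anti-apoptotic Bcl2, Bcl2l1 and Mcl1, the pore-forming effectors Bax and Bak1, and the BH3-only genes Bcl2l11, Bbc3, Pmaip1, Bid and Bad. All 10 were present among the 21176 genes of the table. Ngfr KO samples held less Mcl1 and Bcl2l11 RNA and more Bad RNA than wild-type (WT) samples. The call of Mcl1 held in 17 of 17 alternative analyses that tested it, that of Bad in 10 of 17 and that of Bcl2l11 in 7 of 17. Of the other members, 4 did not pass the test and 3 were too low to be tested.

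As background, BAX and BAK1 oligomerise in the outer mitochondrial membrane and release cytochrome c, which starts the caspase cascade. BCL2, BCL-XL (from Bcl2l1) and MCL1 bind and restrain them. The BH3-only proteins, BIM (Bcl2l11), PUMA (Bbc3), NOXA (Pmaip1), BID and BAD, occupy the anti-apoptotic proteins or engage the effectors directly, and each has its own partners: NOXA binds mainly MCL1, BAD binds BCL2 and BCL-XL, and BIM and PUMA bind all of them. Much of this control is on protein stability, phosphorylation or cleavage, which RNA values do not measure.

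The 7 samples came from male mice of 8 to 12 weeks that had not been immunized, and FDCs were sorted from their popliteal lymph nodes. Of these, 4 samples were WT and 3 were labelled Ngfr KO, a knockout of the gene of the p75 neurotrophin receptor; the allele is not given in the sources used here. Each sample pooled nodes of several animals, so the spread between samples is that between pools. Values are read counts scaled by TMM (trimmed mean of M values, a correction for library size and composition), with no division by gene length, and 1 unit is worth 230 to 295 reads.

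Reads per library ran from 17244925 to 18873542 in WT and from 20741770 to 21538400 in Ngfr KO, so every Ngfr KO library was the deeper. Ngfr itself had values of 0.377, 0.677, 1.30 and 1.14 in WT (97 to 298 reads) and 0.305, 0.353 and 0.184 in Ngfr KO (46 to 104 reads). The groups did not overlap and the mean was 3.11-fold higher in WT, but reads of the gene remained in every Ngfr KO library. Added to the fit described below, it had a log2 change of -0.52 (limma adjusted p = 0.0421; edgeR adjusted p = 0.0574). Of 14 FDC markers, all were tested, none was at 0 in any sample, and 13 were called higher in Ngfr KO by that fit. Cxcl13 was 1.74-fold higher in mean and not called. The summed value of the 14 was 1819 to 5117 for WT and 7911 to 10396 for Ngfr KO. Of 14 endothelial markers, 13 were tested and all 13 were called lower. Their sum was 130.2 to 178.5 for WT against 29.4 to 52.6 for Ngfr KO. Over all genes tested, 18.3% were called higher and 15.8% lower. Summed B-cell markers overlapped, at 17.4 to 26.7 and 20.1 to 37.3, as did T-cell markers, at 3.29 to 12.5 and 5.32 to 12.8. Summed myeloid markers were 3.44 to 8.08 (WT) and 9.04 to 41.8 (Ngfr KO). Reticular stroma markers summed to 86.4 to 212.5 and 246.9 to 353.9. Germinal centre B-cell markers summed to 1.24 to 2.49 and 4.72 to 5.06, and plasma cell markers, with overlap, to 1.44 to 36.1 and 3.51 to 5.198. Mitochondrial transcripts took 5.55% to 7.42% of WT reads and 3.14% to 4.97% of Ngfr KO reads. In such bulk samples, fewer cells of a type and less RNA per cell cannot be told apart, and the part of these shifts in the results on the BCL2 family was not tested.

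Divided by summed exon length, the members spanned a wide range. In WT, Bax (3.34 ± 1.09 per kb, SD, n = 4) and Mcl1 (3.30 ± 0.61) led and overlapped, and Bad followed at 1.34 ± 0.23, apart from both. Bcl2l1 (0.385 ± 0.065), Bid (0.371 ± 0.193), Bcl2 (0.185 ± 0.056) and Bcl2l11 (0.180 ± 0.041) overlapped each with its neighbour in that order, as did Pmaip1 (0.0861 ± 0.0568), Bbc3 (0.0594 ± 0.0285) and Bak1 (0.0284 ± 0.0067). Among the anti-apoptotic genes, Mcl1 thus gave most of the RNA, and Bax stood far above Bak1. In Ngfr KO the leading order was Bax (4.74 ± 0.92 per kb, SD, n = 3), Bad (2.06 ± 0.19) and Mcl1 (1.35 ± 0.36), with no overlap between neighbours. Mcl1 stood above Bad in 4 of 4 WT samples and below it in 3 of 3 Ngfr KO samples.

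**Figure D1:**
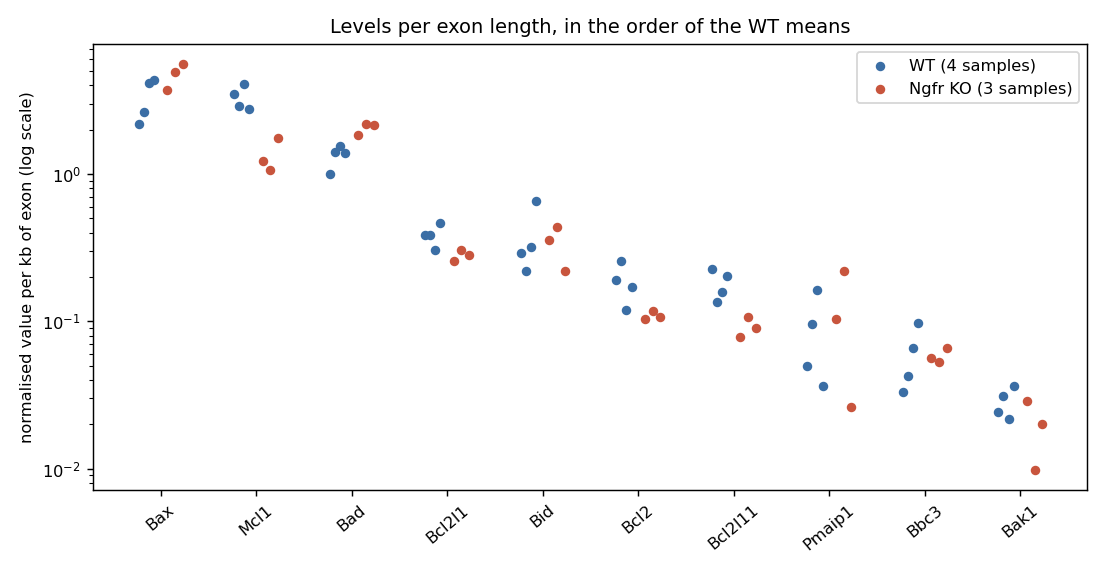
Normalised value per kb of exon (vertical axis, log scale) for the 10 BCL2 family genes, in the order of the WT means; each point is 1 sample, WT in blue and Ngfr KO in red. Bax and Mcl1 share the top in WT, whereas the Ngfr KO points of Mcl1 lie below those of Bad.

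The test was limma on log2(value + 1) over the 8326 genes that reached a value of 1 in 3 or more samples, with Benjamini-Hochberg adjusted p-values called under 0.05. Of the 10 members, 7 passed that filter and 3 (Bak1, Bbc3 and Pmaip1) were too low. Of the 7, 1 was called higher and 2 lower in Ngfr KO, or 42.9%. Across all genes tested 34.2% were called, 18.3% higher and 15.8% lower, so the share of the family is near the background and the results below are about single genes. Groups did not overlap for 5 of the 7, against 40.9% of all genes tested. The median log2 change of the 7 was -0.27, and that of all genes tested 0.02.

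**Figure D2:**
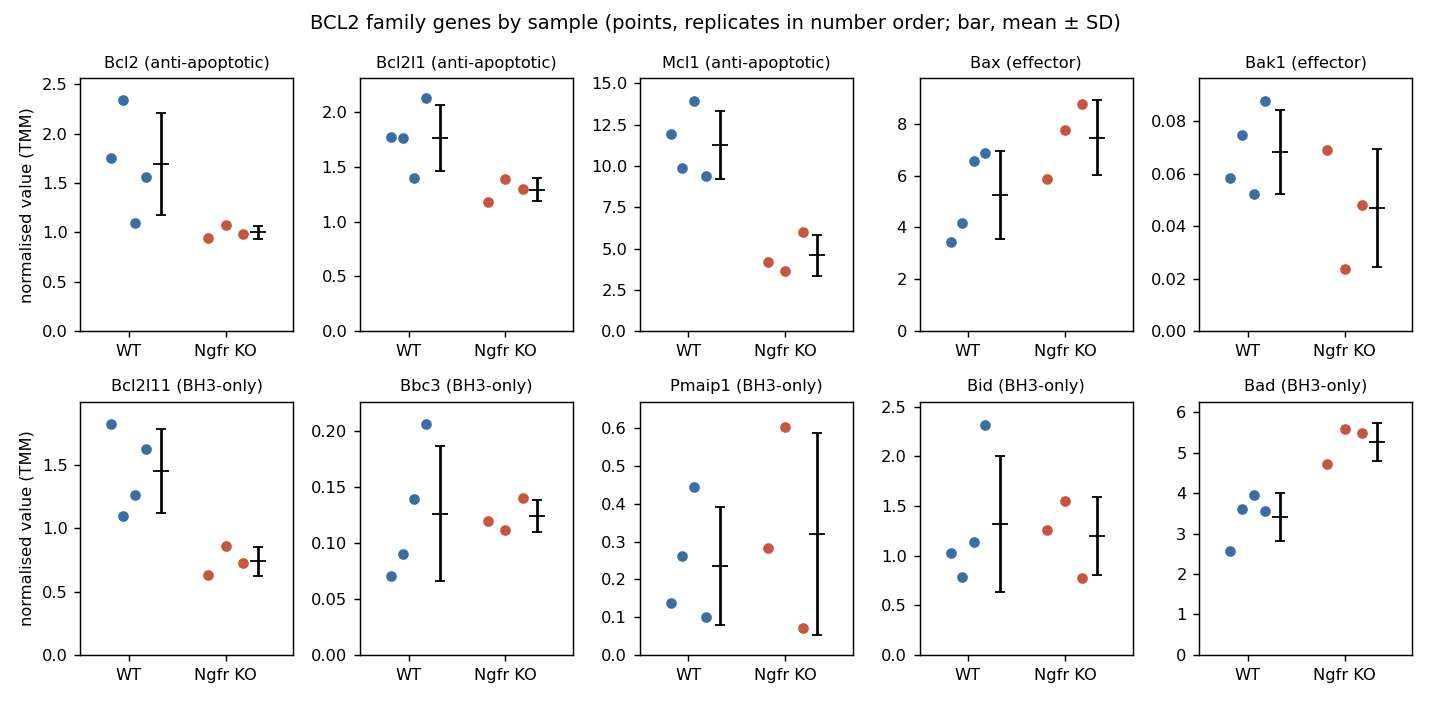
Normalised value (TMM scale, axis from 0) of each BCL2 family gene in each sample; points are replicates in number order, the bar at the side is the mean ± SD, WT in blue (n = 4) and Ngfr KO in red (n = 3). The values of Mcl1, Bcl2l11 and Bad are separated between genotypes, while those of Bcl2 and Bcl2l1 nearly touch and Bid, Pmaip1, Bbc3 and Bak1 overlap widely.

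Mcl1 encodes a short-lived guardian that binds BAK1 and BIM and turns over within hours of losing its supply of RNA. Its gene is on the plus strand of chromosome 3 from 95658788 to 95663176 (ENSMUSG00000038612, GRCm38, GENCODE M21). Values were 12.0, 9.89, 13.9 and 9.41 in WT replicates 1 to 4 and 4.18, 3.64 and 5.998 in Ngfr KO replicates 1 to 3. The lowest WT sample was well above the highest Ngfr KO sample. The mean fell from 11.3 ± 2.1 (SD, n = 4) to 4.61 ± 1.23 (SD, n = 3), and was thus 2.45-fold higher in WT. The log2 change, Ngfr KO minus WT, was -1.14 (SE 0.19, limma adjusted p = 0.00152), and edgeR on the recovered reads gave -1.23 (adjusted p = 0.00793). Permuting the sample labels of Mcl1 values (exact test, two-sided) gave p = 0.0286, which no split of the 35 can undercut. On the log2(value + 1) scale, which draws the changes of low genes towards 0, 2.37% of all genes tested were as low or lower. WT libraries had 2466 to 3200 Mcl1 reads and Ngfr KO libraries 1074 to 1498, so counting error is small beside the spread between pools.

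Mcl1 is also known as an early response gene, and 18 genes of the immediate early and stress response were set beside it. Of these, 17 were tested, 7 were called lower and none higher, with a median log2 change of -0.53. Across all genes tested, 15.8% were called lower and 18.3% higher, and the list was added after the values of Mcl1 were seen. The summed value of the list was 501.1 to 1075 for WT and 352.2 to 715.9 for Ngfr KO, with overlap. Fosb fell by 1.55 on the log2 scale (limma adjusted p = 9.70e-04), and Btg2 by 1.30 (limma adjusted p = 0.00496). Fos and Jun, which like Fosb encode AP-1 subunits, had log2 changes of -0.44 and -0.07 (limma adjusted p = 0.352 and 0.863). Whether the lower Mcl1 values share a source with these genes was not tested.

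Bcl2, the founding member, keeps lymphocytes and many stromal cells alive by holding BIM and BAX. It occupies chromosome 1, minus strand, 106538178 to 106714274. Values were 1.76, 2.34, 1.10 and 1.56 in WT and 0.947, 1.08 and 0.981 in Ngfr KO. All Ngfr KO samples lay below all WT samples, but WT replicate 3 was only just above the highest of them. The log2 change, Ngfr KO minus WT, was -0.41 (SE 0.17, 95% interval -0.77 to -0.04) with limma adjusted p = 0.0755. Without WT replicate 3 the adjusted p by limma was 0.0224.

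Bcl2l1, whose main product BCL-XL restrains BAX and BAK1, occupies chromosome 2, minus strand, 152780668 to 152831728. Its values were 1.77, 1.76, 1.40 and 2.13 in WT and 1.18, 1.39 and 1.30 in Ngfr KO. The groups just missed each other, at 1.391 for the highest Ngfr KO and 1.395 for the lowest WT sample. The log2 change, Ngfr KO minus WT, was -0.27 (SE 0.15, 95% interval -0.58 to 0.05; limma adjusted p = 0.168). The table gives 1 value per gene, so the long form BCL-XL and the pro-apoptotic short form BCL-XS, spliced from the same gene, cannot be told apart.

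Bax occupies chromosome 7, minus strand, 45461697 to 45466898. Its values were 3.44, 4.15, 6.55 and 6.87 in WT and 5.88, 7.76 and 8.75 in Ngfr KO. WT replicates 3 and 4 fell among the Ngfr KO samples, while replicates 1 and 2 were below all of them. The log2 change, Ngfr KO minus WT, was 0.46 (SE 0.22, 95% interval -0.02 to 0.95; limma adjusted p = 0.122). Bax was called higher with the replicate number as a block (log2 change 0.59, limma adjusted p = 0.0332), which leaves WT replicate 4 without a partner, and after each sample's trend with exon length and GC content was removed (0.53, limma adjusted p = 0.0465). Of Bax's exon bases, 12.2% overlap exons of Gm45808 on the same strand, a gene without values here. How reads shared by the 2 genes were counted is not known.

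Bak1, at 27019810 to 27029009 of chromosome 17 (minus strand), was at the edge of detection. It had 12 to 23 reads per WT library and 7 to 19 per Ngfr KO library, with values of 0.0522 to 0.0877 and 0.0237 to 0.0689. With so few reads a difference was not detectable at this depth. Of its exon bases, 18.2% overlap exons of Ggnbp1 on the other strand, a gene with a mean value of 0.175; strand-specific counting is not stated, so some Bak1 reads may belong to that gene.

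Bcl2l11 encodes BIM, the BH3-only protein that FOXO factors induce when growth factor signalling is lost. It is on the plus strand of chromosome 2 from 128126038 to 128162547 (ENSMUSG00000027381). Values were 1.82, 1.09, 1.26 and 1.62 in WT and 0.631, 0.858 and 0.729 in Ngfr KO, with no overlap. The mean fell from 1.45 ± 0.33 (SD, n = 4) to 0.739 ± 0.114 (SD, n = 3), 1.96-fold higher in WT. The log2 change, Ngfr KO minus WT, was -0.49 (SE 0.15, limma adjusted p = 0.0276), and p was 0.0571 by exact permutation (two-sided). edgeR, which works on reads without that pseudocount, gave a log2 change of -0.90 and an adjusted p of 0.0565. The limma call was also lost without a filter (adjusted p = 0.0764), with quantile normalization (0.0506), with the replicate block (0.0665) and with the length and GC trend removed (0.0825). It was lost without WT replicate 1 (limma adjusted p = 0.0757) and without Ngfr KO replicate 1 (0.106), 2 (0.0549) or 3 (0.0564).

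Bad encodes the BH3-only protein that survival kinases phosphorylate and hold in the cytosol on 14-3-3 proteins. It is on the plus strand of chromosome 19 from 6941861 to 6951899 (ENSMUSG00000024959). Values were 2.57, 3.60, 3.96 and 3.55 in WT and 4.71, 5.59 and 5.48 in Ngfr KO. Every Ngfr KO sample was above every WT sample. The mean rose from 3.42 ± 0.59 (SD, n = 4) to 5.26 ± 0.48 (SD, n = 3), or 1.54-fold. The log2 change, Ngfr KO minus WT, was 0.51 (SE 0.16, limma adjusted p = 0.0292), edgeR gave 0.69 (adjusted p = 0.0431), and p was 0.0286 by exact permutation (two-sided). The limma call was lost without a filter (adjusted p = 0.0571) and with the length and GC trend removed (0.0891). It was also lost without WT replicate 1 (limma adjusted p = 0.0815) or 2 (0.0587) and without Ngfr KO replicate 1 (0.0542), 2 (0.0958) or 3 (0.0623). Of Bad's exon bases, 20.5% overlap exons of Gpr137 on the opposite strand, whose values were 0.667 ± 0.166 (SD) in the 4 WT and 0.684 ± 0.112 in the 3 Ngfr KO samples.

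The other BH3-only genes did not separate the genotypes. Bid, whose protein caspase-8 cleaves to link death receptors to mitochondria, occupies chromosome 6, minus strand, 120891930 to 120916853. Bid had values of 1.03, 0.782, 1.13 and 2.32 in WT and 1.26, 1.55 and 0.777 in Ngfr KO, with a log2 change of -0.05 (95% interval -0.51 to 0.41; limma adjusted p = 0.865). WT replicate 4 was the highest of all. Bbc3, the p53 target that encodes PUMA (plus strand of chromosome 7, 16308393 to 16318205), had 18 to 54 reads in WT and 33 to 35 in Ngfr KO. Pmaip1, which encodes NOXA (plus strand of chromosome 18, 66458533 to 66465565), had 0.136, 0.262, 0.443 and 0.0992 in WT and 0.283, 0.604 and 0.0721 in Ngfr KO, so that the Ngfr KO group held both the highest and the lowest value. With these low members added to the fit, the 95% intervals of the log2 change were -0.27 to 0.27 for Bbc3, -0.27 to 0.44 for Pmaip1 and -0.29 to 0.23 for Bak1. Those intervals are narrow because the pseudocount of 1 exceeds all their values. Approximate standard errors, derived from edgeR's log2 change and F statistic, were 0.72, 0.77 and 0.89.

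edgeR's quasi-likelihood test on the recovered reads kept all 10 members and called 2 of them, Mcl1 lower and Bad higher, where 15.2% of all 16751 genes it tested were called.

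**Figure D3:**
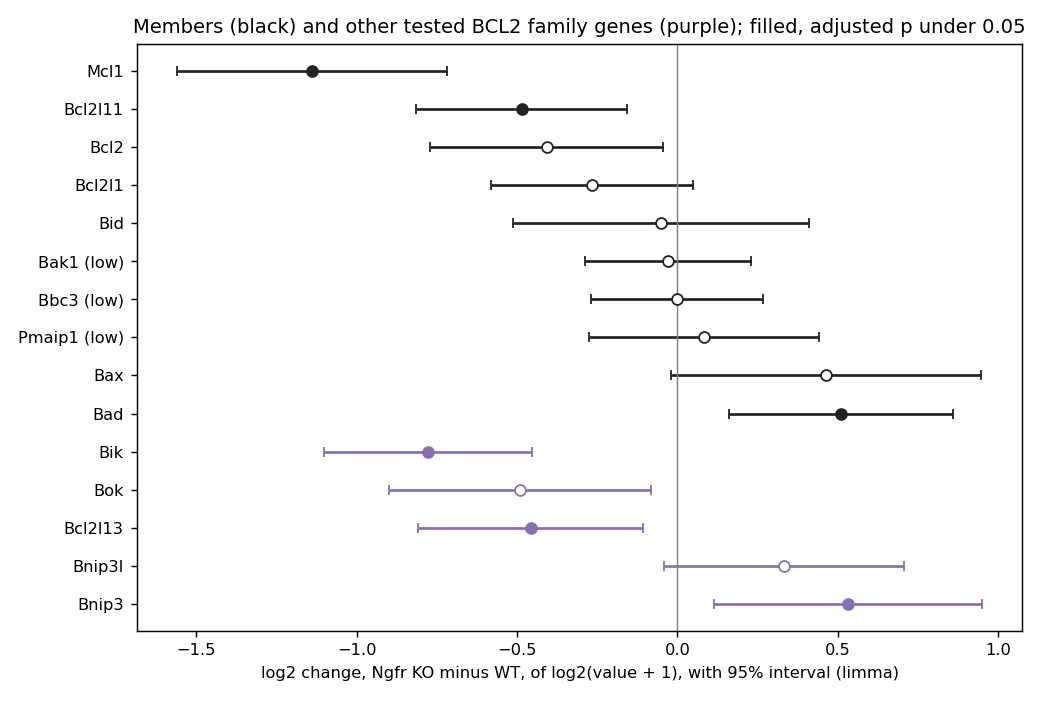
Log2 change of log2(value + 1), Ngfr KO minus WT, with limma's 95% interval (horizontal axis) for the 10 members (black; "low" marks the 3 below the filter) and the 5 other BCL2 family genes that passed the filter (purple); filled points had an adjusted p under 0.05. On this scale Mcl1, at -1.14, lies farthest from 0, but the pseudocount of 1 draws the changes of genes with lower values towards 0. The intervals of Mcl1, Bcl2l11, Bcl2, Bad, Bik, Bok, Bcl2l13 and Bnip3 do not reach 0.

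Ratios of members within a sample do not depend on how samples are scaled. Per kb, the ratio of Mcl1 to Bax was 1.60, 1.10, 0.978 and 0.631 in WT replicates 1 to 4 and 0.328, 0.216 and 0.316 in Ngfr KO replicates 1 to 3. Every Ngfr KO sample was below every WT sample, and the mean log2 ratio of the values differed by -1.86, Ngfr KO minus WT. The same was the case for Bcl2l1 to Bax, with a difference of -0.99, for Bcl2 to Bax (-1.25) and for Bcl2l1 to Bad (-1.08). Bcl2l1 to Bad was 0.385, 0.273, 0.197 and 0.334 per kb in WT and 0.140, 0.139 and 0.133 in Ngfr KO, a narrow range in that group. In Bcl2 to Bax, WT replicate 3 (0.0289) lay just above Ngfr KO replicate 1 (0.0277), and WT replicates 1 and 2 were at 0.0877 and 0.0971. Ratios of Mcl1 to Bak1, Mcl1 to Pmaip1 and Bcl2 to Bcl2l11 overlapped. These ratios restate the values above and were given no test.

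**Figure D4:**
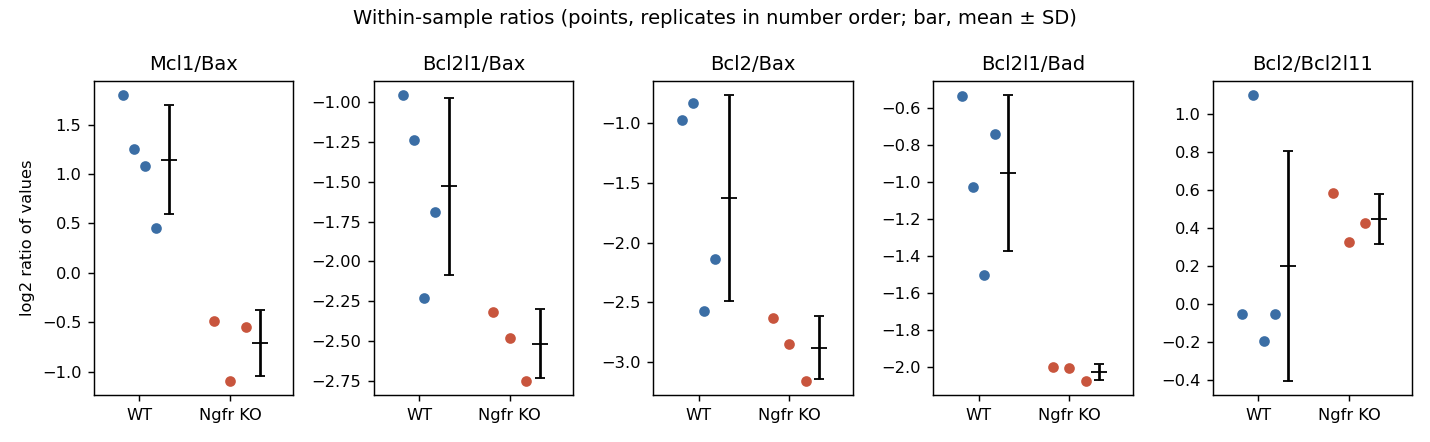
Log2 ratio of the normalised values of 2 genes within a sample (vertical axis; a constant for the 2 gene lengths is included, so only samples are to be compared), WT in blue (n = 4) and Ngfr KO in red (n = 3), with mean ± SD at the side. The first 4 ratios are lower in every Ngfr KO sample than in any WT sample; Bcl2/Bcl2l11 overlaps.

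Exon length moved with the change across the whole table, with Spearman's rho -0.256 over 8323 tested genes of known length, which are not independent replicates. The short members Bax (1.576 kb) and Bad (2.558 kb) had positive and the long members Bcl2l11 (8.029 kb) and Bcl2 (9.157 kb) negative changes. The 1231 tested genes within 20% of Bad's length had a median log2 change of 0.29, 31.2% of them were called higher, and 69.9% had a change as low as Bad's or lower. The 1469 genes near the length of Bcl2l11 had a median of -0.14 and 20.4% were called lower; 20.3% were as low or lower. For Mcl1, of 3.418 kb, the 1590 genes of like length had a median of 0.20, 10.7% were called lower, and 2.39% were as low or lower. With the length and GC trend removed, the log2 change of Mcl1 was -1.34 (limma adjusted p = 7.65e-04), that of Bad 0.32 and that of Bcl2l11 -0.35. That of Bax was 0.53 (limma adjusted p = 0.0465), against 0.46 with the trend left in. Those of Bcl2, Bcl2l1 and Bid were -0.25, -0.33 and -0.25 with the trend removed.

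**Figure D5:**
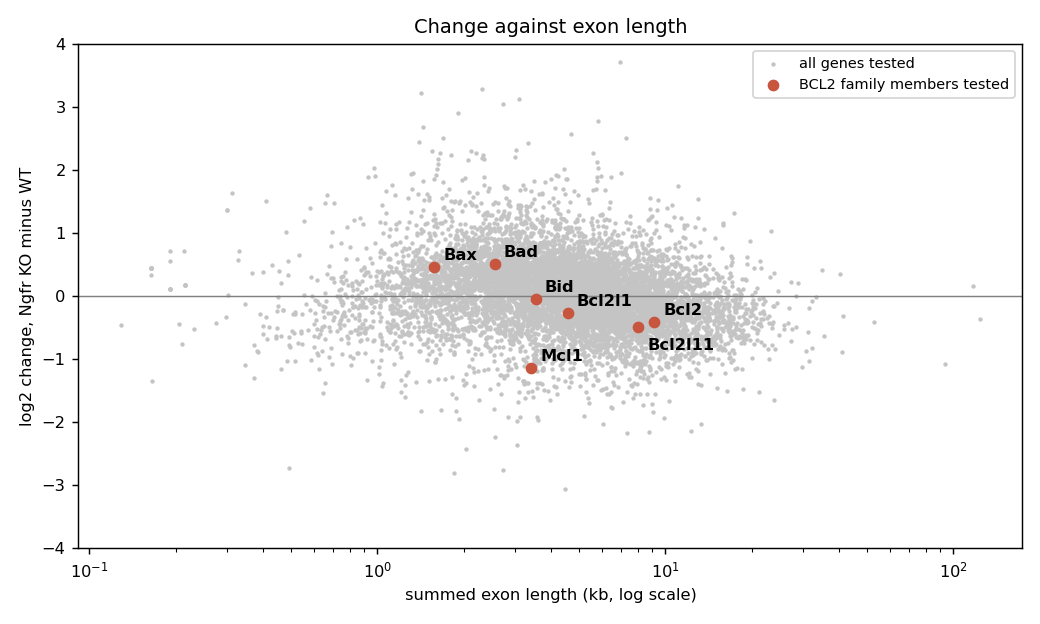
Log2 change, Ngfr KO minus WT (vertical axis), against summed exon length in kb (horizontal axis, log scale) for all tested genes of known length (grey) and the 7 members tested (red). Bax, Bad, Bcl2l11 and Bcl2 lie inside the sloping cloud, and Mcl1 lies below the bulk of genes of its length.

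The promoters of the 3 called genes are shown because Mcl1 and Bcl2l11 fell while Bad rose and the regions where their transcripts start can be set side by side. Each is the RefSeq window of 250 bases before to 50 after a start site on GRCm38.p6, written 5′ to 3′ on the gene's strand. The windows are chr3:95658471-95658770 (plus) for Mcl1, chr2:128125788-128126087 (plus) for Bcl2l11 and chr19:6941611-6941910 (plus) for Bad; the last 2 genes have another window each, not shown. Capitals mark matches, on either strand, to TGANTCA (AP-1), TGACGTCA (CRE), TGTTTAC (FOXO), CCGGAAG (ETS), GGGCGG (GC box), CCAAT and TATAAA.
Mcl1: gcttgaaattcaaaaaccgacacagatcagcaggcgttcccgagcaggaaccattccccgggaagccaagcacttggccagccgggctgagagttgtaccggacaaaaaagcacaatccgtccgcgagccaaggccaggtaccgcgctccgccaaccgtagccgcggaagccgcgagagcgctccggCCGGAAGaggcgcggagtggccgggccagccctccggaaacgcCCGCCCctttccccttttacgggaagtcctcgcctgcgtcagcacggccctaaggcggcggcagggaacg
Bcl2l11: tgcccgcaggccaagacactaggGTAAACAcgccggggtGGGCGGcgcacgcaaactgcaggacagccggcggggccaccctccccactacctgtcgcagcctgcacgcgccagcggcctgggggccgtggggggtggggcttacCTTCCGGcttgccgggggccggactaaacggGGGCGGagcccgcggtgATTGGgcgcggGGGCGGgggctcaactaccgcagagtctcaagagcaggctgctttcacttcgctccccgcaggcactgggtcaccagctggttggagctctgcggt
Bad: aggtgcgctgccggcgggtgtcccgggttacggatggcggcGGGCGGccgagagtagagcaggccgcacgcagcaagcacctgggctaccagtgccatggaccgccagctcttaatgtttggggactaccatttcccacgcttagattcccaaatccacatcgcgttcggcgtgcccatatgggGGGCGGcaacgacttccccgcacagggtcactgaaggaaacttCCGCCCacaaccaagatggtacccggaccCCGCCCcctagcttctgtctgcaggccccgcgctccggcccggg

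The Mcl1 window holds 1 ETS and 1 GC box match. The Bcl2l11 window holds 1 FOXO match, 1 ETS match, 3 GC boxes and 1 CCAAT, and the Bad window 4 GC boxes. None of the 3 holds AP-1, CRE or TATAAA letters. The windows not shown differ: that of Bcl2l11 holds 3 GC boxes, 2 CCAAT and no FOXO or ETS match, and that of Bad 1 CCAAT and no GC box. Of 32851 promoter windows of this length, 3.65% hold the FOXO letters, 8.86% the ETS letters, 35.7% a GC box, 37.4% CCAAT, 13.6% TATAAA, 7.81% AP-1 and 1.79% CRE. These are matches of letters and not shown sites.

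Other genes of the pathway were taken as lists, and their changes are given on the log2(value + 1) scale. The median over all genes tested was 0.02, and 34.2% of them were called, 18.3% higher and 15.8% lower. Longer genes tended to have lower changes across the table, and the listed genes were not compared with genes of like length. Of 15 further genes of the family, 14 were in the table and 5 passed the filter, with 1 called higher, 2 lower and a median of -0.46. Bik, a BH3-only gene, had 1.83 ± 0.16 (SD) in the 4 WT samples and 0.664 ± 0.247 in the 3 Ngfr KO samples, with no overlap. It fell by 0.78 on the log2 scale (limma adjusted p = 0.00279), and edgeR gave -1.38 (adjusted p = 0.0179). By edgeR, which works without the pseudocount of 1, the change of Mcl1 was smaller than that of Bik, at -1.23. Bcl2l13, a mitochondrial member linked to mitophagy, fell by 0.46 (limma adjusted p = 0.0454), but edgeR gave an adjusted p of 0.116. Its exons overlap 17.7% of the exon bases of Bid on the other strand. Bnip3, a hypoxia-inducible gene of mitophagy, rose by 0.53 (limma adjusted p = 0.0495; edgeR adjusted p = 0.0749). Its relative Bnip3l had a log2 change of 0.33 (limma adjusted p = 0.147), and the BAX-like effector Bok -0.49 (limma adjusted p = 0.0599). Bok stood at 8.27 ± 1.63 (SD) in WT and 5.596 ± 1.15 in Ngfr KO, or 4.49 and 3.04 per kb, against 3.34 and 4.74 per kb for Bax. The near-identical paralogs Bcl2a1a, Bcl2a1b and Bcl2a1d, NF-κB targets whose reads the counting could have split, all failed the filter.

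Of 15 listed genes of the apoptosome, the caspases and the mitochondrial membrane, 12 were tested. Of these, 4 were called higher, none lower and 8 not called, with a median of 0.20. That count of 4 in 12 is near the 34.2% of all genes. The voltage-dependent channels Vdac1 and Vdac2, the latter a binding partner of BAK1, rose by 0.81 and 0.67 (limma adjusted p = 0.00286 and 0.00843). Htra2 and Diablo, whose proteins leave the mitochondrion and antagonise inhibitors of apoptosis, rose by 0.73 and 0.62 (limma adjusted p = 0.00584 and 0.0168). Cycs, Apaf1 and Casp8 were among those not called. Among 7 brakes on caspases, 6 were tested (median 0.04) and 1 was called: Xiap, the direct caspase inhibitor that HTRA2 and DIABLO oppose, fell by 1.01 on the log2 scale, from 6.39 ± 1.30 (SD, n = 4) to 2.67 ± 0.53 (SD, n = 3; limma adjusted p = 0.00181).

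Of 20 listed regulators of the family, 16 were tested, 3 were called higher, 1 lower and 12 not, with a median of -0.05. Foxo1, a transcription factor known to induce Bcl2l11, had 4.77 ± 0.38 (SD) in the 4 WT samples and 1.39 ± 0.38 in the 3 Ngfr KO samples, and fell by 1.28 on the log2 scale (limma adjusted p = 3.30e-04). It is also expressed in endothelium and lymphocytes, whose markers are given above. Whether the fall of Foxo1 relates to those cells or to the values of Bcl2l11 was not tested. Trp53 rose by 0.63 and its target and inhibitor Mdm2 by 0.60 (limma adjusted p = 0.0257 and 0.0224), and Ddit3, a stress factor that can induce Bcl2l11, by 0.55 (limma adjusted p = 0.0419; edgeR adjusted p = 0.0650). The p53 target Cdkn1a had a log2 change of 0.38 (limma adjusted p = 0.450). Usp9x and Huwe1, which remove or add ubiquitin on MCL1, had log2 changes of -0.49 and -0.51 (limma adjusted p = 0.0726 and 0.0594). Of 8 genes of death receptor signalling, 7 were tested and 3 were called, all higher, with a median of 0.41. Fas, the death receptor, had 8.02 ± 3.03 (SD) in the 4 WT samples and 36.9 ± 2.4 in the 3 Ngfr KO samples, and rose by 2.15 on the log2 scale (limma adjusted p = 4.48e-04). Traf1, an NF-κB target and adaptor, rose by 1.56 (limma adjusted p = 2.03e-04) and Tradd by 0.41 (limma adjusted p = 0.0426; edgeR adjusted p = 0.0550).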

How the data were processed

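The authors deposited 1 table of TMM-scaled signal per gene, 1 column per sample, named so in its file name. The submitters' processing notes name bcl2fastq 2.20.0.422 and the build mm10; the aligner, counter, annotation and TMM software are not given in the sources used here. Per the labels' protocols, cDNA was made with SMART-Seq v4 and libraries with Nextera XT. Each column is whole reads times 1 factor: 100% of values were whole multiples of 1 step within 0.1 reads, which gave the recovered reads. Reads are not molecules, so read numbers cover counting error only. Fits used R 4.3.3, limma 3.58.1 (lmFit, eBayes with trend) and edgeR 4.0.16, across all genes; the 3 low members were added to the same fit. Gene coordinates and exon lengths came from GENCODE M21 by identifier (21137 of 21176 matched).

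The members and all gene lists were chosen with earlier results of these data known, and the immediate early list was added after the values of Mcl1 were seen. Named genes are the members, up to 4 called genes per direction in each pathway list, and the tested family genes; Fos, Jun, Fosb, Btg2, Cdkn1a, Usp9x, Huwe1 and uncalled genes of the caspase list were chosen after their values were seen. Counts adjusted over a list alone are not given. Deviations of same-numbered samples correlated at 0.298 for number 1, -0.0593 for number 2 and -0.0108 for number 3. The replicate number served only as an alternative. Other alternatives were pseudocounts of 0.1 and 5, other filters and scalings, robust eBayes, edgeR and leaving out each replicate; removing the length and GC trend (natural splines) was added after seeing the data. Scripts were tested on simulated data.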

Additional observations from a re-analysis of the deposited data

Results flagged for a closer look

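Of 17 quantities (the 10 genes and 7 ratios), 1 had a WT sample far from the other 3 by Dixon's criterion, where chance gives about 1 in 20, or 0.85. The log2 ratio of Bcl2 to Bcl2l11 was 1.10 in WT replicate 2 and -0.05, -0.20 and -0.05 in WT replicates 1, 3 and 4. In replicate 2 Bcl2 had its highest WT value, 2.34, and Bcl2l11 its lowest, 1.09; the cause was not tested.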

How the results depend on the processing

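Mcl1 stayed lower and under the threshold in all 17 alternatives that tested it (log2 change -1.34 to -0.76, limma or edgeR adjusted p = 7.65e-04 to 0.0150). Bad stayed higher in 17 and was called in 10, and Bcl2l11 stayed lower in 17 and was called in 7; their values stand in the report. The number of members called was 3 as reported, 1 without a filter (Mcl1) and 1 to 4 over the 7 leave-one-out fits; it was 1 (Mcl1) without WT replicate 1 or any Ngfr KO replicate. A filter of at least 10 in 3 samples tested none of the members. Over all genes, 2844 were called as reported, 535 of 1297 with that filter and 1614 to 3006 without 1 replicate (1870 without WT replicate 1, 1803 and 1614 without Ngfr KO replicates 1 and 2); the cause was not tested. edgeR called 2551.

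The replicate block gave 2717 genes and 3 members (Bad, Bax and Mcl1). Deviations of same-numbered samples correlated at 0.298, -0.0593 and -0.0108, and not every sample correlated best with its own number. With so few samples, these correlations cannot decide whether the numbers pair the samples.

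Directions changed only for members that were never called. Bbc3, at -0.0015 as reported, was 0.021 with a pseudocount of 0.1, 0.0047 with median ratio scaling, 0.032 with the replicate block, 0.10 with the length and GC trend removed, 0.035 and 0.023 by edgeR with TMM and RLE factors, and -0.026 to 0.032 without 1 replicate. Bid was 0.14 with the replicate block and -0.17 to 0.14 without 1 replicate. Pmaip1 was -0.16 with the length and GC trend removed and -0.067 to 0.22 without 1 replicate. The low reads of Bak1, Bbc3 and Pmaip1 limit what can be seen in them.

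The 7 ratio differences kept their sign without any 1 replicate, but 3 moved by over 1.5 times. Mcl1 to Pmaip1, -1.52 as reported, was -0.68 without Ngfr KO replicate 2 and -2.57 without Ngfr KO replicate 3. Mcl1 to Bak1, -0.67 as reported, was -0.27 without Ngfr KO replicate 1 and -0.44 without WT replicate 3. Bcl2 to Bcl2l11, 0.25 as reported, was 0.55 without WT replicate 2, 0.11 without WT replicate 3, and 0.16 without WT replicate 1 or 4.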
